A study of Pyrocoelia pectoralis with 6 samples.

Results

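The UDP-glycosyltransferase genes of the firefly Pyrocoelia pectoralis were described in its luminous and non-luminous organs. Members were the genes of the deposited table whose description names a UDP-glycosyltransferase, UDP-glucosyltransferase, UDP-glucuronosyltransferase or ecdysteroid UDP-transferase, and 80 of 12533 genes matched. Of these, 53 were described as UDP-glycosyltransferase UGT5, 22 as UDP-glucosyltransferase 2 (symbol UTG2) and 5 as UDP-glycosyltransferase UGT4, and none carried the ecdysteroid or glucuronosyl name. There were 3 libraries of the luminous organ, which emits the light, against 3 of the non-luminous organ, all from males. The labels give no age, strain or treatment and leave the tissue of the non-luminous organ undescribed. They also do not tell separate animals from pools or repeat libraries, so p-values measure only how far these libraries differ, and that may be technical.

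UDP-glycosyltransferases move a sugar from a UDP-sugar onto a small, mostly fat-soluble molecule, which makes it more soluble and easier to store or excrete. The enzymes sit in the membrane of the endoplasmic reticulum, and those of insects mostly use UDP-glucose. In insects they are known from the fat body, the gut, the Malpighian tubules and the antennae, where they act on plant toxins, insecticides, pigments, cuticle precursors and odorants. UDP-glucosyltransferase 2 is named after an enzyme of the cochineal insect Dactylopius coccus that adds glucose in the making of the pigment carminic acid. What any firefly member acts on was not tested, and the descriptions rest on similarity to proteins of other species.

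Values were FPKM, reads or fragments scaled to gene length and to the size of the library, as the authors deposited them. The steps between low FPKM values gave library totals of 18037627 to 20417645 reads, and whole reads came out for 99.99% of genes with a value above 0 in 3 or more libraries. Luciferin 4-monooxygenase RI129_003463, described as a luciferase, stood at 532, 374 and 292 FPKM in luminous replicates 1, 2 and 3, against 0.322, 0.595 and 0.505 FPKM in the non-luminous replicates.

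Gene lengths could be read from the same steps, as the shortest length that gave whole reads in every library. Where all of a gene's reads share a common factor, its true length and reads are a multiple of those given, and genes of few reads or few libraries above 0 are the most open to this. The lengths are coding lengths, since 96.5% of all genes with a length had a multiple of 3 bases, and 76 of the 80 members did. The median member was 1545 bases long, and 62 members had at least 1400 bases, up to 1607. Another 14 members came out shorter than 1000 bases, down to 518, and some of these may be such a fraction of the true length. All 80 carried a Gene Ontology term for the endoplasmic reticulum, 58 for UDP-glycosyltransferase activity and 22 for UDP-glucosyltransferase activity, which follows their descriptions. Members with similar sequences can share reads, and how the authors' counting divided such reads is not given in the sources used here. Levels of close copies are therefore uncertain.

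As a family, UDP-glycosyltransferase mRNA was less abundant in the luminous organ. Summed over the 80 members it stood at 287, 364 and 313 FPKM in luminous replicates 1, 2 and 3, against 683, 564 and 713 FPKM in non-luminous replicates 1, 2 and 3. The luminous mean was 321 ± 39.2 FPKM and the non-luminous mean 654 ± 79.1 FPKM (SD, n = 3 each), and the 2 organs did not overlap. Members of at least 1 FPKM numbered 38, 41 and 36 in the luminous libraries, against 63, 58 and 62 in the non-luminous libraries. By organ means, 39 members reached 1 FPKM in both organs, 24 in the non-luminous organ alone, 1 in the luminous organ alone and 16 in neither. In these bulk samples, fewer cells of a type and less RNA per cell cannot be told apart.

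Each gene was tested with limma on log2(FPKM + 1) across the 9863 genes whose mean reached 1 FPKM, with a call where the Benjamini-Hochberg adjusted p was below 0.05. Of the 58 members that passed this filter, 36 were lower in the luminous organ, 2 were higher and 20 were not called. Among all tested genes, 17.0% were called lower and 9.63% higher. The groups did not overlap for 36 members in the lower and 5 in the higher direction, where 28.7% and 17.4% of all tested genes did so (46.1% in either direction). The median log2 difference, luminous minus non-luminous, was -1.26 for the tested members and -0.09 for all tested genes. Of the 36 lower members, 15 had a log2 difference of -2 or below, and 2.85% of all tested genes were called at that size. Under every alternative that gave a value, 22 of the 36 stayed called.

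The filter bears on these counts. A mean of under 1 FPKM in the luminous organ was found for 18 of the 58 tested members, which therefore passed through the non-luminous organ, and 17 of these were called lower. The other 40 tested members had a luminous mean of at least 1 FPKM, and 19 of them were called lower. The share of all genes called lower under that condition was not computed. Of the 15 lower members with a log2 difference of -2 or below, most had a luminous mean under 1 FPKM. The exceptions were RI129_000623, RI129_003654, RI129_010763, RI129_012555 and RI129_012578. With no filter on low values, 41 of the 80 members were lower and 2 higher (RI129_007037 again, and RI129_003401 in place of RI129_003651), against 12.5% and 6.77% of all 12533 genes. The mean was lower in the luminous organ for 64 of the 80 members (80%) and for 57.7% of all genes. With 1 library left out, 25 to 36 members were lower, and only 1 was higher without luminous replicates 2 or 3 or without any of the non-luminous replicates. Calls over all genes fell as well. Without non-luminous replicate 3, 43.1% of tested members and 7.68% of all tested genes were lower, and 362 of all 9863 were higher. Quantile normalization gave 32 lower and 6 higher of 58 tested members, against 1275 lower and 1440 higher of all 9866 genes tested then.

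**Figure D1:**
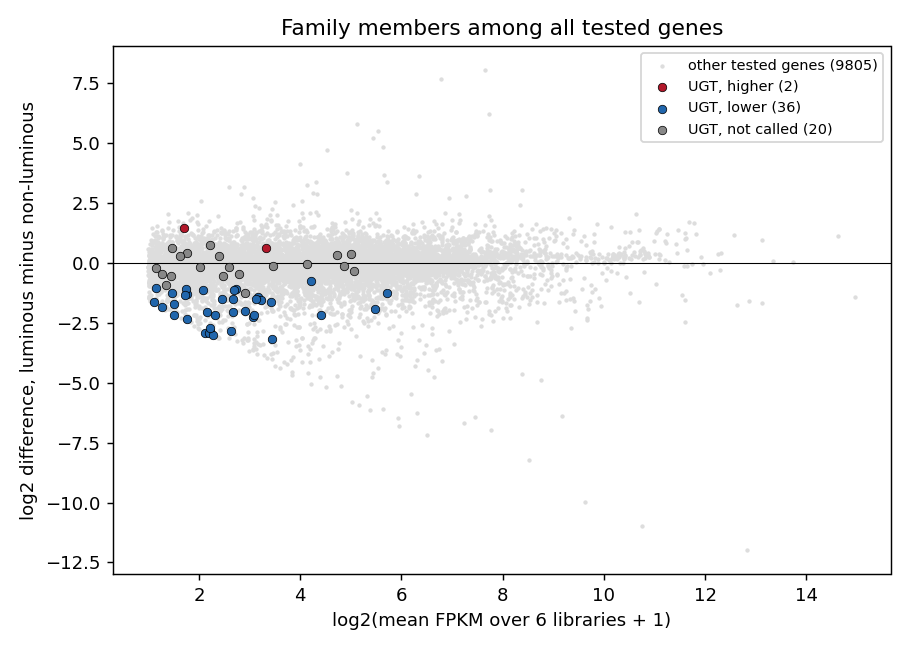
Difference in log2(FPKM + 1), luminous minus non-luminous, against log2 of the mean FPKM over the 6 libraries plus 1, for the 58 tested family members (large points, coloured by call) and the other tested genes (grey). The 36 members called lower lie below 0 over most of the family's range of levels, and the 2 called higher are single points above it.

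The abundant members were few and largely the same in both organs. The 5 most abundant members held 44.3%, 43.1% and 53.1% of the family's summed FPKM in luminous replicates 1, 2 and 3, against 33.4%, 37.9% and 39.7% in the non-luminous replicates. In the luminous organ the 5 highest means belonged to RI129_007034, RI129_012501, RI129_012497, RI129_006350 and RI129_009026. In the non-luminous organ they belonged to RI129_012501, RI129_002432, RI129_012497, RI129_012555 and RI129_009026. Even the top member was far from the most abundant mRNAs, ranking 3155 among all genes in the luminous organ and 1665 in the non-luminous organ.

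RI129_012501, a UDP-glucosyltransferase 2, was the most abundant member of the non-luminous organ. Its levels were 24.9, 29.0 and 37.2 FPKM in luminous replicates 1, 2 and 3, against 70.6, 61.1 and 88.4 FPKM in the non-luminous replicates. Every luminous library was below every non-luminous one (log2 difference -1.25, SE 0.191, limma adjusted p = 0.00505). The second UDP-glucosyltransferase 2 gene at this level, RI129_002432, stood at 16.1, 25.9 and 12.2 FPKM in the luminous libraries, against 57.9, 64.7 and 83.9 FPKM in the non-luminous libraries. It was lower by the larger amount, with a log2 difference of -1.92 (SE 0.268, limma adjusted p = 0.00379).

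RI129_012555, the third of these UDP-glucosyltransferase 2 genes, varied more between libraries. It had 3.14, 15.9 and 4.46 FPKM in luminous replicates 1, 2 and 3, against 29.0, 22.6 and 47.1 FPKM in the non-luminous replicates. The groups did not overlap, and luminous replicate 2 was several times the other luminous libraries (log2 difference -2.16, SE 0.521, limma adjusted p = 0.0221). Leaving out luminous replicate 3 (limma adjusted p = 0.0728) or non-luminous replicate 1 or 3 (0.0653 and 0.0872) ended that call, with a range of 0.00225 to 0.0872 over all alternatives.

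Other abundant members did not pass the test. RI129_007034, a UGT5 gene and the highest of the luminous organ, stood at 37.7, 32.6 and 33.8 FPKM there, against 32.1, 21.6 and 28.0 FPKM in the non-luminous organ. RI129_006350, also UGT5, had 26.9, 28.3 and 31.3 FPKM in the luminous libraries and 24.5, 22.1 and 21.1 FPKM in the non-luminous libraries. For both, every luminous library was above every non-luminous one by a small margin, with log2 differences of 0.35 and 0.34 and limma adjusted p of 0.154 and 0.0884. RI129_007034 was called after quantile normalization (adjusted p = 0.0491, range 0.0491 to 0.392), and RI129_006350 after median-of-ratios rescaling and quantile normalization (0.042 and 0.03, range 0.03 to 0.241).

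RI129_009026, a UGT5 gene, had 20.8, 31.7 and 28.6 FPKM in the luminous libraries, against 33.4, 29.0 and 25.1 FPKM in the non-luminous libraries, and the organs overlapped (log2 difference -0.12, limma adjusted p = 0.684). RI129_012497, a UDP-glucosyltransferase 2, had 16.9, 35.3 and 35.1 FPKM in luminous replicates 1, 2 and 3, against 34.7, 36.4 and 35.5 FPKM in the non-luminous replicates. Only luminous replicate 1 was apart from the other 5 libraries in that gene (log2 difference -0.35, limma adjusted p = 0.372). The abundant members thus held both genes that were lower and genes with no call.

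**Figure D2:**
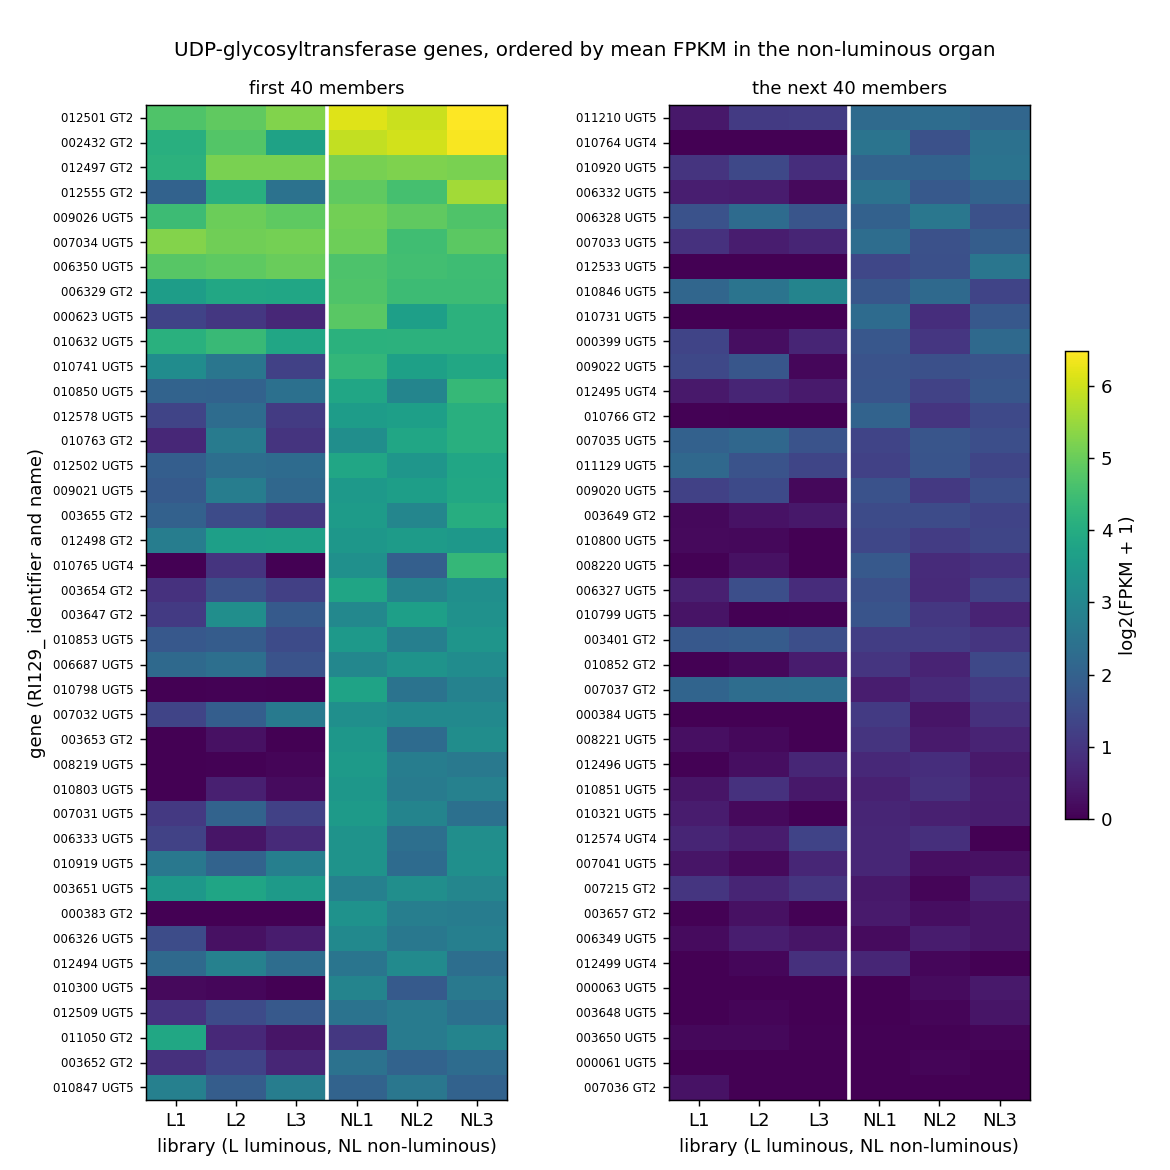
Log2(FPKM + 1) of all 80 members (rows, ordered by mean FPKM in the non-luminous organ, with UDP-glucosyltransferase 2 written as GT2) in the luminous libraries (L1 to L3, left of the white line) and the non-luminous libraries (NL1 to NL3, right). Members such as RI129_012501 and RI129_012497 are bright in all 6 libraries, while RI129_000383 and RI129_010798 are dark on the luminous side only.

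Several members were close to unread in the luminous organ. RI129_010798, a UGT5 gene, had 0, 0.0316 and 0 FPKM in luminous replicates 1, 2 and 3, against 12.4, 4.57 and 6.27 FPKM in the non-luminous replicates. That is 1 read over the 3 luminous libraries and 668 over the others, a 718-fold lower rate (95% exact binomial interval 128 to 28404). RI129_008219, also UGT5, had 3 luminous reads against 616, a 221-fold lower rate (interval 75.2 to 1073), and stood at 0, 0.0317 and 0.0683 FPKM against 10.6, 5.74 and 5.20 FPKM. Intervals and floors here cover counting error only. Both genes were called lower, with limma adjusted p of 0.00211 and 0.00133.

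With no luminous read at all there were 7 members, of which 4 were tested. RI129_000383, a UDP-glucosyltransferase 2 with the shortest length read from the steps, had 8.80, 5.78 and 5.57 FPKM in non-luminous replicates 1, 2 and 3, from 193 reads. With 3 reads over the whole luminous organ taken as the floor, it was at least 69.2-fold lower there (limma adjusted p = 0.00082). The 518 bases of RI129_000383 are not a multiple of 3, so its length, reads and floor may be a fraction of the true ones. The UGT4 gene RI129_010764 had 4.67, 2.03 and 4.32 FPKM in the non-luminous libraries and was at least 43.0-fold lower (limma adjusted p = 0.00398). For the UGT5 gene RI129_012533, at 1.62, 1.98 and 4.80 FPKM in the non-luminous libraries, the floor gave at least 84.6-fold (limma adjusted p = 0.0103).

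The UGT5 gene RI129_010731 was the fourth, at 3.81, 0.810 and 2.44 FPKM in the non-luminous libraries and at least 72.4-fold lower in the luminous organ (limma adjusted p = 0.0208). Leaving out luminous replicate 3 (0.0578) or non-luminous replicate 1 or 3 (0.0626 and 0.0794) ended the call, with a range of 0.00919 to 0.0794 over all alternatives. The untested RI129_000384 had 65 non-luminous reads and was at least 23.3-fold lower. RI129_000063 and RI129_000061 had 7 and 1 non-luminous reads, too few to say more than that they were hardly read in either organ.

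The largest difference on the log2(FPKM + 1) scale belonged to RI129_000623, a UGT5 gene. Its levels were 1.46, 1.08 and 0.652 FPKM in luminous replicates 1, 2 and 3, against 27.4, 11.7 and 17.0 FPKM in the non-luminous replicates. Means of 1.06 ± 0.404 and 18.7 ± 8.01 FPKM (SD, n = 3 each) made it 17.6-fold lower in the luminous organ (log2 difference -3.20, SE 0.321, limma adjusted p = 0.00133), a call that held under all 15 alternatives.

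Other strongly lower members also had few luminous reads. RI129_003653, a UDP-glucosyltransferase 2, had 0, 0.219 and 0 FPKM in the luminous libraries, against 9.70, 3.80 and 8.12 FPKM in the non-luminous libraries (limma adjusted p = 0.00238). RI129_010803, a UGT5 gene, had 0, 0.480 and 0.138 FPKM against 9.77, 5.48 and 6.20 FPKM (limma adjusted p = 0.00156). In both, as in RI129_010798, luminous reads came mostly or wholly from replicate 2. RI129_010300, also UGT5, had 0.124, 0.0914 and 0 FPKM in the luminous libraries and 6.60, 2.54 and 5.17 FPKM in the non-luminous libraries (limma adjusted p = 0.00374). These 3 genes were 98.6-fold, 34.7-fold and 66.4-fold lower by the ratio of means, from 7, 19 and 7 luminous reads.

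RI129_010765, RI129_010763 and RI129_012578 also had their highest luminous value in replicate 2. The UGT4 gene RI129_010765 had 0, 0.957 and 0 FPKM in luminous replicates 1, 2 and 3, against 8.48, 2.92 and 19.0 FPKM in the non-luminous replicates. It was called by limma (log2 difference -2.86, SE 0.585, adjusted p = 0.0128) and not by limma-voom on the recovered reads (adjusted p = 0.0572, range 0.00905 to 0.0572). RI129_010763, a UDP-glucosyltransferase 2, had 0.640, 5.46 and 0.973 FPKM in the luminous libraries, against 8.16, 13.3 and 16.0 FPKM in the non-luminous libraries (log2 difference -2.25, limma adjusted p = 0.0193). It was not called when luminous replicate 3 (0.0637) or non-luminous replicate 2 or 3 (0.0653 and 0.0792) was left out, with a range of 0.00182 to 0.0792. The UGT5 gene RI129_012578 stood at 1.52, 3.87 and 1.20 FPKM against 11.1, 11.7 and 16.0 FPKM, and was called under all alternatives (limma adjusted p = 0.00459).

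Only RI129_007037 and RI129_003651 were called higher in the luminous organ. RI129_007037, described as UDP-glucosyltransferase 2 with a coding length of 864 bases, had 3.23, 3.97 and 4.03 FPKM in luminous replicates 1, 2 and 3, against 0.430, 0.693 and 1.15 FPKM in the non-luminous replicates. It was 4.93-fold higher, from 192 luminous and 36 non-luminous reads (log2 difference 1.45, SE 0.249, limma adjusted p = 0.0074), and it was called in every alternative that kept it. The UGT5 gene RI129_003651 had 10.1, 12.9 and 10.5 FPKM in the luminous libraries and 6.02, 8.19 and 6.83 FPKM in the non-luminous libraries. Its groups did not overlap, but the difference was small (1.59-fold, log2 difference 0.60, SE 0.181, limma adjusted p = 0.0457). RI129_003651 was no longer called when luminous replicate 2 or 3 was left out (0.106 and 0.0877), when non-luminous replicate 1, 2 or 3 was (0.144, 0.0639 and 0.131), or when no filter was applied (0.0759), and adjusted p ranged from 0.0151 to 0.144. RI129_003401, a UDP-glucosyltransferase 2 chosen after its values were seen, had 2.42, 2.63 and 1.95 FPKM in the luminous libraries and 1.27, 1.23 and 1.005 FPKM in the non-luminous libraries. Its groups did not overlap either, and it was not called (1.996-fold, log2 difference 0.62, SE 0.225, limma adjusted p = 0.0822). It was called with no filter (0.0478), with no intensity trend (0.0238) and after quantile normalization (0.0202), with a range of 0.0202 to 0.206.

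**Figure D3:**
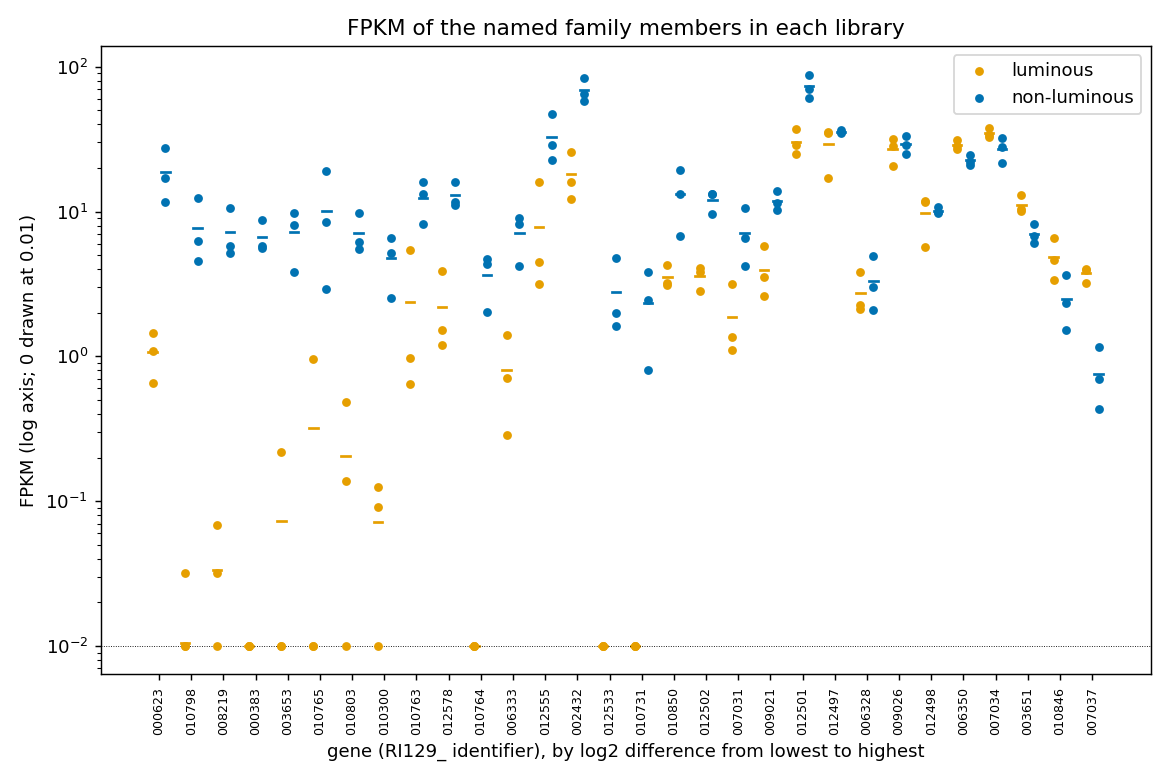
FPKM on a log axis of the 30 members named by rule, in the luminous (orange) and non-luminous (blue) libraries, ordered by log2 difference from lowest to highest. Points are libraries, short lines are means of 3, and values of 0 are drawn at 0.01. RI129_000623 at the left end has luminous points far below the non-luminous ones, and RI129_007037 at the right end has the widest gap the other way.

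Members differed in how steady they were within an organ. The median SD of log2(FPKM + 1) among replicates was 0.342 in the luminous and 0.315 in the non-luminous organ for the 58 tested members, against 0.238 and 0.170 for all tested genes. Within the luminous organ, replicate 2 was the highest library for 30 of the 58 members (51.7%, and 34.4% of all tested genes), and replicate 1 the lowest for 32 (55.2%, and 33.8%). Ties at 0 were counted for replicate 1, which raises that 32. They were the 4 tested members with no luminous read, and RI129_003653, RI129_010765 and RI129_010798, at 0 in luminous replicates 1 and 3. Within the non-luminous organ, replicate 2 was the lowest for 30 members (51.7%, and 36.5% of all tested genes). The family's summed FPKM was likewise highest in luminous replicate 2, and lowest in luminous replicate 1 and non-luminous replicate 2 within their organs.

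RI129_011050, a UDP-glucosyltransferase 2 chosen after its values were seen, had the widest luminous spread among members with a luminous mean of at least 1 FPKM. It stood at 13.5 FPKM in luminous replicate 1 and at 0.686 and 0.281 FPKM in luminous replicates 2 and 3, against 1.06, 5.48 and 6.54 FPKM in the non-luminous replicates. The organs overlapped, and the gene was called in no alternative (limma adjusted p = 0.699, range 0.0634 to 0.963). The neighbouring UGT5 genes RI129_009020 and RI129_009022, chosen likewise, shared another pattern. They stood at 1.39, 1.76 and 0.109 FPKM and at 1.67, 2.35 and 0.0767 FPKM in luminous replicates 1, 2 and 3, so replicate 3 was low in both. In the non-luminous replicates they had 2.13, 1.12 and 1.94 FPKM and 2.16, 2.02 and 2.18 FPKM.

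Gene identifiers were clustered, with 50 of the 80 members in 8 runs of at least 4 members whose identifier numbers lay at most 5 apart. Gene positions were not used here, so the runs are neighbourhoods of identifiers only. Of the 37 tested members in runs, 22 were lower and 2 higher, and of the 21 tested members outside runs, 14 were lower and 0 higher. Among all tested genes, 17.0% were lower and 9.63% higher. Both higher members sat in runs that also held lower members, as all 8 runs did.

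The run RI129_003647 to RI129_003657 held 10 members, of which 6 were tested, 4 were lower and 1 was higher. RI129_003651, the higher one, stood between lower or untested neighbours, and RI129_003653 was the lowest at a log2 difference of -2.86. The first gene of the run, RI129_003647, was not called (limma adjusted p = 0.103). The run's 1 higher call was lost with the libraries given for RI129_003651.

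The run RI129_007031 to RI129_007041 was the most mixed, and its summed FPKM was close to equal, at 48.0, 46.6 and 47.8 in the luminous libraries against 57.6, 40.8 and 45.8 in the non-luminous libraries. Of 6 tested members, the first 3 identifiers were lower and RI129_007037 was higher, while RI129_007034 and RI129_007035 were not called. RI129_007031 was the lowest, at 1.10, 3.18 and 1.37 FPKM in luminous replicates 1, 2 and 3 against 10.7, 6.57 and 4.21 FPKM in the non-luminous replicates (log2 difference -1.49, limma adjusted p = 0.026). Its call ended when luminous replicate 3 (0.0793) or non-luminous replicate 1 or 2 (0.0851 and 0.0753) was left out, with a range of 0.0153 to 0.0851. Leaving out luminous replicate 3 left 1 lower member in the run, and leaving out non-luminous replicate 1, 2 or 3 left 0, 1 and 1.

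The runs RI129_010763 to RI129_010766 and RI129_010798 to RI129_010803 were low in the luminous organ as wholes. Their 4 members each summed to 0.672, 6.41 and 0.973 FPKM and to 0.387, 0.607 and 0.172 FPKM in luminous replicates 1, 2 and 3, against 24.5, 19.2 and 41.0 FPKM and 26.0, 12.4 and 14.6 FPKM in the non-luminous replicates. All 3 and 2 tested members of these runs were lower. Except for RI129_010763, their luminous means were under 1 FPKM, so they passed the filter only through the non-luminous organ, which favours that direction. When low values were not filtered, all 4 members of each run were called lower. The first run's 3 tested genes were RI129_010763, RI129_010764 and RI129_010765, 2 of them the UGT4 genes given above.

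The run RI129_006326 to RI129_006333 had 4 lower members among 6, from -2.16 for RI129_006333, at 1.41, 0.286 and 0.704 FPKM in the luminous libraries against 8.97, 4.17 and 8.22 FPKM in the non-luminous libraries (limma adjusted p = 0.00583). The uppermost was RI129_006328 at -0.19, with 2.12, 3.82 and 2.28 FPKM against 3.01, 4.91 and 2.07 FPKM, which overlapped (limma adjusted p = 0.698). In the run RI129_009020 to RI129_009026, 1 of 4 members was lower. That was RI129_009021, at 2.60, 5.75 and 3.51 FPKM in the luminous libraries and 10.3, 11.5 and 13.9 FPKM in the non-luminous libraries (log2 difference -1.42, limma adjusted p = 0.00909).

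In the run RI129_010846 to RI129_010853, 2 of 4 tested members were lower and 2 were not called. RI129_010850 had 3.20, 3.11 and 4.27 FPKM in the luminous libraries and 13.2, 6.77 and 19.4 FPKM in the non-luminous libraries (log2 difference -1.55, limma adjusted p = 0.017). Its call was lost without non-luminous replicates 1 and 3 (0.0638 and 0.057, range 0.00855 to 0.0638), which left 1 lower member in the run. RI129_010846, at the other end, had 3.39, 4.60 and 6.53 FPKM against 2.32, 3.63 and 1.51 FPKM, which overlapped (log2 difference 0.75, limma adjusted p = 0.112), and was called only after quantile normalization (adjusted p = 0.0406, range 0.0406 to 0.302).

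The run RI129_012494 to RI129_012502 held 3 lower members among 6 tested, and the family's most abundant gene. RI129_012502, of UGT5, was its lowest, at 2.82, 4.09 and 3.80 FPKM in the luminous libraries against 13.2, 9.55 and 13.3 FPKM in the non-luminous libraries (log2 difference -1.51, SE 0.208, limma adjusted p = 0.0037). RI129_012498, a UDP-glucosyltransferase 2, was its uppermost, at 5.70, 11.7 and 11.9 FPKM against 9.85, 10.8 and 9.89 FPKM (log2 difference -0.11, limma adjusted p = 0.792). As in its neighbour RI129_012497, luminous replicate 1 was low and the other 5 libraries were close together.

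**Figure D4:**
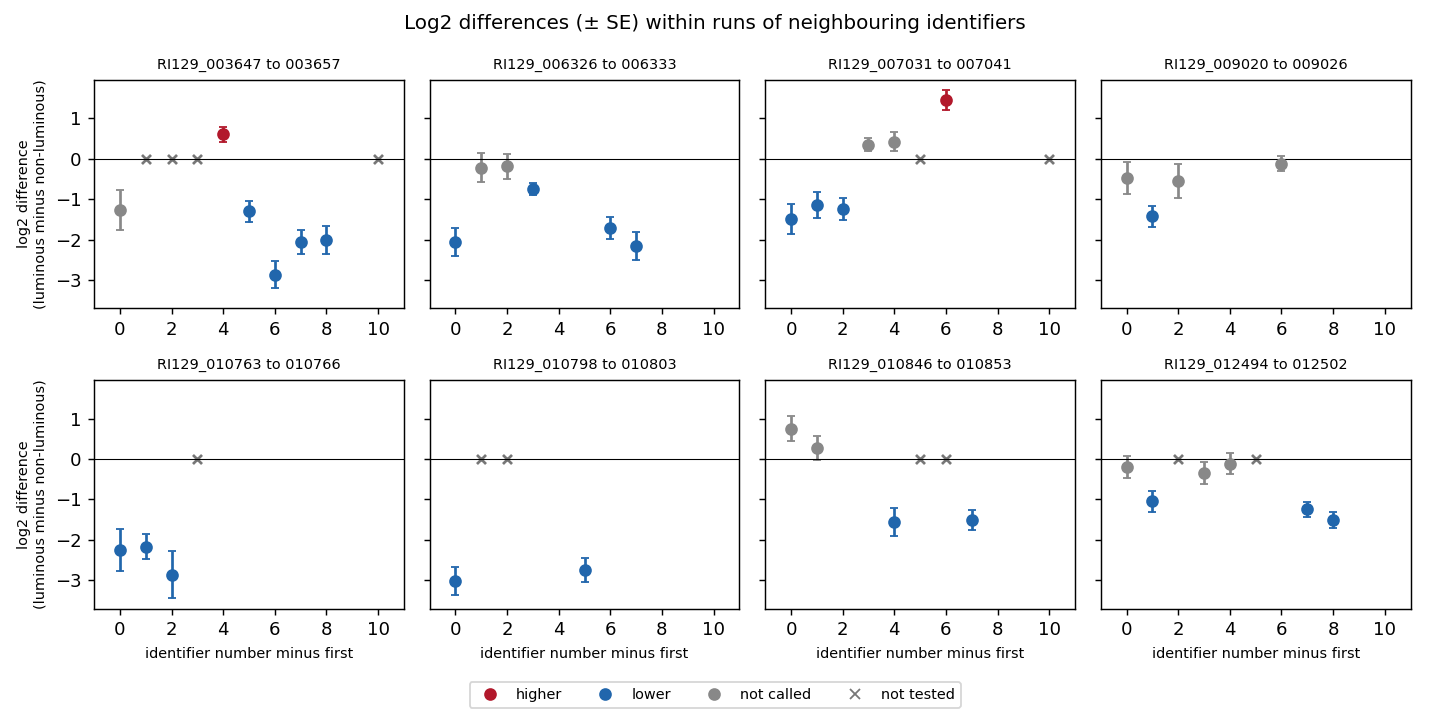
Log2 difference (luminous minus non-luminous, ± SE) of the members in the 8 runs of neighbouring identifiers, against the identifier number counted from the first member of each run. Colours give the call and crosses on the 0 line mark members that were not tested, with lower members in every run and the 2 higher members, RI129_003651 and RI129_007037, in runs that also hold lower ones.

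By description, most called members were lower in each of the 3 groups. Of 39 tested UGT5 genes, 23 were lower and 1 higher, with a median log2 difference of -1.15. Of 16 tested UDP-glucosyltransferase 2 genes, 10 were lower and 1 higher, with a median of -1.28. All 3 tested UGT4 genes were lower and 0 higher by limma (0 higher at an unadjusted p under 0.05, and 0 by limma-voom). Their luminous means were 0, 0.319 and 0.440 FPKM, so they passed the filter only through the non-luminous organ, which favours that direction. UGT4 genes lower numbered 2 by limma-voom, after quantile normalization and with the replicate block, and 1 when the mean had to reach 5 FPKM. They also numbered 2 without luminous replicate 3 or without non-luminous replicate 1 or 3. The 2 untested UGT4 genes had the higher mean in the luminous organ. RI129_012574 averaged 0.819 against 0.493 FPKM, and RI129_012499 averaged 0.314 against 0.232 FPKM. The UGT5 count was 15 without non-luminous replicate 3, and differences between the 3 groups were not tested. Over the luminous libraries the summed level was 188 ± 12.5 FPKM for UGT5, 131 ± 27.1 FPKM for UDP-glucosyltransferase 2 and 1.89 ± 0.877 FPKM for UGT4 (SD, n = 3). Over the non-luminous libraries it was 323 ± 45.2 FPKM, 314 ± 45.9 FPKM and 16.5 ± 9.17 FPKM in the same order (SD, n = 3). A KEGG pathway was listed for 61 members, and 27 of 43 tested members with one and 9 of 15 without one were lower.

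The 22 untested members stayed below a mean of 1 FPKM over the 6 libraries and reached at most 3.20 FPKM in any library. They were read between 1 and 169 times in all, and 4 of them 10 times or fewer. The mean was lower in the luminous organ for 16 of the 22, and 7 were called lower when no filter was applied. Of those, RI129_010766, a UDP-glucosyltransferase 2, had 1 luminous and 168 non-luminous reads. At the other extreme, RI129_007036, also a UDP-glucosyltransferase 2, had 4 reads, all in luminous replicate 1, and was the one member with no non-luminous read.

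Genes that make the sugar donor were called about as often as all tested genes. The list of UDP-sugar supply held 19 genes, all tested, of which 4 were lower (21.1%, and 17.0% of all tested genes) and 2 higher (10.5%, and 9.63%), with a median log2 difference of -0.28. With the replicate block 0 were higher. UGP2 (RI129_002615), which makes UDP-glucose from glucose-1-phosphate, had 26.7, 22.9 and 17.9 FPKM in luminous replicates 1, 2 and 3, against 47.7, 47.6 and 57.9 FPKM in the non-luminous replicates. The groups did not overlap, and it was called under all alternatives (log2 difference -1.16, SE 0.171, limma adjusted p = 0.00454). The nucleoside diphosphate kinase gene awd (RI129_009076), whose enzyme regenerates UTP, had 128, 142 and 105 FPKM against 374, 333 and 433 FPKM (log2 difference -1.59, limma adjusted p = 0.00114).

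UDP-glucose 6-dehydrogenase, the enzyme that turns UDP-glucose into UDP-glucuronate, is encoded by sgl in Drosophila, and 2 genes bore that symbol. The gene sgl RI129_008588 had 42.2, 24.9 and 29.5 FPKM in luminous replicates 1, 2 and 3, against 30.6, 31.8 and 30.7 FPKM in the non-luminous replicates, and was not called (limma adjusted p = 0.956). The gene sgl RI129_008498 had 9.49, 1.28 and 0.597 FPKM against 0.413, 2.43 and 1.92 FPKM (limma adjusted p = 0.658). Its value in luminous replicate 1 stood apart from the other luminous libraries, as did that of RI129_011050.

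The hexokinase gene Hex-t2 (RI129_000979), whose enzyme phosphorylates glucose, was among the higher genes of this list. It had 312, 309 and 386 FPKM in the luminous libraries and 252, 227 and 193 FPKM in the non-luminous libraries (log2 difference 0.58, limma adjusted p = 0.0244), and the groups did not overlap. Hex-t2 lost its call when luminous replicate 3 (0.0713) or non-luminous replicate 2 or 3 (0.071 and 0.0916) was left out, with a range of adjusted p of 0.0175 to 0.0916 over the alternatives. When luminous replicate 3 was left out, 0 genes of the list were higher and 2 lower. When non-luminous replicate 1, 2 or 3 was left out, 1, 1 and 0 were higher and 2, 3 and 2 lower.

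Other users of UDP-sugars, of which 11 were tested, had 4 lower (36.4%, and 17.0% of all tested genes) and 1 higher (9.09%, and 9.63%). The higher one, gsk3b (RI129_007247), is a protein kinase caught by its name. The trehalose-phosphate synthase gene tpsA (RI129_007040), whose enzyme makes the precursor of the blood sugar trehalose from UDP-glucose, had 925, 487 and 391 FPKM in the luminous libraries and 1382, 988 and 1289 FPKM in the non-luminous libraries (log2 difference -1.10, limma adjusted p = 0.0366). That call did not hold when luminous replicate 2 or 3 (0.0876 and 0.103) or any non-luminous replicate (0.117, 0.0628 and 0.117) was left out, with no filter (0.0555) or with no intensity trend (0.0522), with a range of 0.00318 to 0.117. Genes lower numbered 2 without luminous replicate 3 or non-luminous replicates 1 or 3. The kinase gene gsk3b (RI129_007247; limma adjusted p = 0.0387, range 0.0203 to 0.132) was not called when luminous replicate 1 or 2 (0.0599 and 0.0791) or any non-luminous replicate (0.112, 0.0619 and 0.132) was left out, with no filter (0.0528) or with no intensity trend (0.0596). The chitin synthase gene chs-2 (RI129_006630) was the lowest of the list, at 0.105, 0.08 and 0.16 FPKM in the luminous libraries against 16.7, 7.70 and 17.1 FPKM in the non-luminous libraries (log2 difference -3.66, limma adjusted p = 0.00084).

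Enzymes that cleave glycosides, the reverse of what the family does, had 6 lower of 12 tested (50%, and 17.0% of all tested genes). By limma 0 were higher, where 9.63% of all tested genes were (1 higher at an unadjusted p under 0.05, 0 by limma-voom, and 1 higher without luminous replicate 2). A myrosinase-like beta-glucosidase gene, RI129_000884, had 7.35, 18.4 and 9.30 FPKM in luminous replicates 1, 2 and 3, against 32.4, 62.7 and 56.7 FPKM in the non-luminous replicates (log2 difference -2.07, limma adjusted p = 0.00757). CG33090 (RI129_003353), for a non-lysosomal glucosylceramidase, had 38.1, 47.3 and 30.6 FPKM against 154, 113 and 144 FPKM (log2 difference -1.81, limma adjusted p = 0.00151).

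Other detoxifying enzymes and partners of cytochrome P450 had 32 lower (50.8%, and 17.0% of all tested genes) and 3 higher (4.76%, and 9.63%) of 63 tested. Their median log2 difference was -0.86. The carbonyl reductase gene Cbr1 (RI129_002262), whose enzyme reduces carbonyl groups, had 1.83, 1.51 and 1.87 FPKM in the luminous libraries, against 40.1, 23.7 and 34.6 FPKM in the non-luminous libraries (log2 difference -3.60, SE 0.22, limma adjusted p = 0.000203). Among genes described as Venom carboxylesterase-6, RI129_007811 was lower (log2 difference -3.16), and RI129_000315 and RI129_008035 were higher (1.33 and 0.56). RI129_008035 (limma adjusted p = 0.0142, range 0.00781 to 0.0605) was not called when non-luminous replicate 1 or 3 was left out (0.055 and 0.0605). Genes lower in this list numbered 15 without non-luminous replicate 3, and genes higher numbered 1 without non-luminous replicates 1 or 3.

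Regulators of the xenobiotic response were not called, with 0 of 6 tested by limma (0 at an unadjusted p under 0.05, and 0 by limma-voom). Among all tested genes, 26.6% were called in either direction, and 6 genes are too few to set this list apart from that share. The gene cnc (RI129_011543), for a factor that switches on detoxifying genes under stress, averaged 54.8 ± 5.51 FPKM in luminous and 58.7 ± 7.81 FPKM in non-luminous libraries (SD, n = 3 each; limma adjusted p = 0.659). KEAP1 (RI129_006708), its inhibitor, averaged 31.8 ± 3.18 FPKM in luminous and 35.6 ± 7.72 FPKM in non-luminous libraries (limma adjusted p = 0.577). The nuclear receptor gene Hr96 (RI129_005764) averaged 45.2 ± 7.08 FPKM in luminous and 37.2 ± 2.11 FPKM in non-luminous libraries (limma adjusted p = 0.21).

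Marker lists of tissues that a dissected organ could hold were measured beside the family. For comparison with their counts, 17.0% of all tested genes were lower and 9.63% higher. The midgut list had 88 tested genes, 44 lower and 7 higher, and summed to 2603 to 3583 FPKM in the luminous libraries against 7267 to 9076 FPKM in the non-luminous libraries. Of its 144 genes, 20 had no luminous read, led by Trypsin alpha-4 RI129_004078, and 3 had no non-luminous read. Over all 12533 genes these numbered 421 and 233. Muscle genes were 8 higher and 0 lower of 12 tested (sums of 32412 to 34214 FPKM in luminous against 13435 to 17644 FPKM in non-luminous libraries, the sense of all ranges that follow), and epidermis and cuticle genes 7 higher and 0 lower of 19 (646 to 827 against 250 to 476 FPKM). Fat body genes were 3 higher and 4 lower of 11 (1515 to 2261 against 1415 to 1546 FPKM), and Malpighian tubule genes 5 higher and 5 lower of 29 (4251 to 6723 against 4566 to 5045 FPKM). Olfactory genes were 2 higher and 1 lower of 12 (73.7 to 121 against 103 to 330 FPKM), and nervous system genes 2 higher and 2 lower of 14 (644 to 783 against 454 to 555 FPKM). Haemocyte genes were 2 higher and 1 lower of 23 (1122 to 2099 against 1273 to 1444 FPKM), testis genes 1 higher and 6 lower of 32 (906 to 988 against 722 to 868 FPKM), and luciferase-like genes 2 higher and 12 lower of 21 (988 to 1100 against 601 to 628 FPKM). Some lists caught stray genes by a word in their description. The part of tissue content in the family's differences was not tested.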

How the data were processed

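The authors deposited 1 table of FPKM for 12533 genes and 6 libraries, with symbols, descriptions, Gene Ontology terms and KEGG pathways. The labels' protocols name Trizol for the RNA and a stranded mRNA kit for the libraries. The submitters' processing notes list HTSeq, HISAT2, Trimmomatic and R 3.2.0 without saying what each did. What genome build, annotation and strand setting were used is not given in the sources used here.

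Whole reads were recovered from the steps of the deposited FPKM values (tolerance 0.0001 reads plus their rounding).

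Genes whose mean reached 1 FPKM were fitted as log2(FPKM + 1) with limma 3.58.1 in R 4.3.3 (lmFit, eBayes with an intensity trend, no block, two-sided, Benjamini-Hochberg over all tested genes, threshold 0.05). The pseudocount understates changes of low genes. The fit was tested on simulated data. Folds are ratios of mean FPKM. With 0 to 3 luminous reads they are ratios of reads per library total, against a floor of 3 reads over the organ or with an exact 95% binomial interval. Related lists and tissue markers were matched by words in descriptions. The members and lists were chosen with earlier results of these data known. Named members were the 10 largest called differences per direction without overlap, the 5 most abundant per organ, those with no read in 1 organ and at least 1 FPKM in the other, and the extremes of each run. Of the related lists, up to 2 called genes per direction were taken, and UGP2 and sgl in any case; 1 gene that this rule names is not reported here. Sequences were not used here.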

Additional observations from a re-analysis of the deposited data

How the results depend on the processing

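The median log2 difference of tested members was -1.26 as reported, -1.70 with a pseudocount of 0.1, -0.61 with one of 5, -1.03 when low values were kept, -1.01 after quantile normalization and -1.77 by limma-voom on recovered reads. It was -1.36 to -1.20 with 1 library left out. Quantile normalization moved the median of all genes by 0.165, and the members' median relative to it was -1.08, against -1.16 as deposited. Without a pseudocount, and with members without a luminous read at their bound of 3 reads, the median log2 ratio was -1.63, a 3.10-fold lower level, and -0.09 over all genes. When the mean had to reach 5 FPKM, 27 members were tested, 17 were lower and 1 higher, and 11 named members were called, because fewer members were tested. Members higher numbered 6 after quantile normalization and 1 to 2 with 1 library left out, for which the cause was not tested. Over all genes, 1440 of 9866 were higher after quantile normalization, against 950 of 9863 as reported. Members lower numbered 25 to 36 with 1 library left out, named members called 18 to 23 (23 as reported), and the related lists' calls 25 to 53. Of the 36 lower members, 25 remained lower without non-luminous replicate 3, where lower calls over all tested genes fell from 17.0% to 7.68%.

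The labels do not say whether equal replicate numbers pair the libraries. Correlations of deviations from the organ means were -0.111, -0.00869 and -0.166 for replicates 1, 2 and 3. For unequal numbers they were -0.0642 to 0.207. With 3 libraries per organ these values cannot decide whether equal numbers share a source. With the replicate block, 32 members were lower and 1 higher, and RI129_003651 (limma adjusted p = 0.0665) and Hex-t2 (0.0653) were not called.

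Depth limits members of few reads: for those with no luminous read, 3 reads over the luminous organ set a lower bound of the fold, and for those with 1 to 3 reads the counting interval is wide.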
